A study of Rattus norvegicus with 24 samples.

Results

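The genes described here are the receptor chains of interferon-gamma (Ifngr1, Ifngr2), the JAK kinases (Jak1, Jak2, Tyk2), the transcription factor Stat3 and the feedback inhibitors Socs1, Socs2, Socs3 and Cish. They were chosen by name, and every probe set that the array annotation gives to 1 of these 10 genes alone was used. This gave 15 probe sets of the 31042 tested, with 2 probe sets each for Jak1, Ifngr2, Stat3, Socs1 and Cish and 1 for each of the others. RNA came from rat INS-1E cells, an insulin-making beta-cell line derived from an insulinoma, and was hybridised to 24 single-colour Affymetrix arrays. Cells received either no cytokines or IL-1b at 10 ng/ml, IFN-g at 50 ng/ml and TNF-a at 25 ng/ml together. Each condition was combined with DMSO, the solvent, or with 10 uM of the small molecule BRD0476, and lasted 6 or 12 h. This makes 8 groups of 3 arrays: no cytokines with DMSO, no cytokines with BRD0476, cytokines with DMSO, and cytokines with BRD0476, at each time. All groups are 1 cell line in culture, the 3 cytokines were given only together, and the labels do not say whether the 3 arrays of a group came from separate cultures, so each p-value reflects no more than the array-to-array spread, which may be technical.

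Interferon-gamma binds a receptor made of a ligand-binding chain, Ifngr1, and a signalling chain, Ifngr2, which carry Jak1 and Jak2. The activated kinases phosphorylate STAT factors, which enter the nucleus and switch on target genes. Among these targets are the SOCS proteins and Cish, which bind receptors or kinases and damp the signal, so that the pathway limits itself. In beta cells, interferon-gamma together with IL-1 and TNF drives inflammatory gene expression and can lead to cell death. The arrays measure RNA only, not protein or phosphorylation, and in bulk cultures fewer responding cells and less RNA per cell cannot be told apart.

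Array medians lay between 5.49 and 5.57 on the log2 scale, and the correlation r between arrays of one group ran from 0.992 to 0.998. All 10 measured beta-cell markers of a list of 12 had mean levels above the median of all log2 values (5.52), with Ins1 the highest at 14.54. With cytokines in DMSO at 6 h 8 of these 10 fell and 1 rose (limma, adjusted p under 0.05), against 41.6% of all probe sets called in either direction. With both agents at 6 h 7 were higher than with cytokines and DMSO, against 33.8% of all called in either direction. The part of these movements in the results below was not tested. All 8 measured leukocyte markers lay below that median, and their summed intensity ranged from 159 to 172 between groups. In the same 2 comparisons 1 of them was called higher with cytokines in DMSO, and 1 with both agents than with cytokines and DMSO. Of 6 measured markers of other islet endocrine cells, Gcg, the glucagon gene, lay above the median (10.14), and the summed intensity of that list ranged from 721 to 1576. Of the fibroblast list 2 of 7 lay above it, Thy1 (8.82) and Pdgfra (6.03), with sums of 438 to 755, of the endothelial list 1 of 4, Kdr, with sums of 63.3 to 129, and of the exocrine and duct list 0 of 5, with sums of 65.1 to 73.8. The part of these lists in the results was not tested. The arrays numbered 3 of both groups given cytokines and DMSO stood furthest from their group. In these arrays 331 probe sets at 6 h and 360 at 12 h lay more than 2-fold from the mean of the other 2 arrays, and low readings of Stat3, Cish, Socs2 and Jak1 in them are given below. The values come without detection calls, so the lower quartile of all probe-set means, 3.84, serves here as a mark of dim signal.

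The first question was how the cytokines alone changed the RNA of these genes. In DMSO, Jak2, Tyk2, both chains of the interferon-gamma receptor, Stat3, Socs1 and Cish rose by 6 h, and none of the 10 genes fell. At 12 h Jak2, Tyk2, Ifngr2, Stat3, Socs1, Socs2 and Cish were higher than without cytokines, whereas Jak1 was lower. In counts, 10 of the 15 probe sets rose and 0 fell at 6 h (limma, adjusted p under 0.05), where 41.6% of all probe sets were called in either direction. The median log2 change was 0.31 over the 15 probe sets and -0.01 over all probe sets. At 12 h 10 rose and 2 fell, against 35.3% called among all probe sets, and the medians were 0.82 and -0.02. Here and below, a change is the difference of mean log2 intensity with its standard error, n = 3 arrays per group, and adjusted p-values are from limma with Benjamini-Hochberg adjustment over all probe sets.

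**Figure D1:**
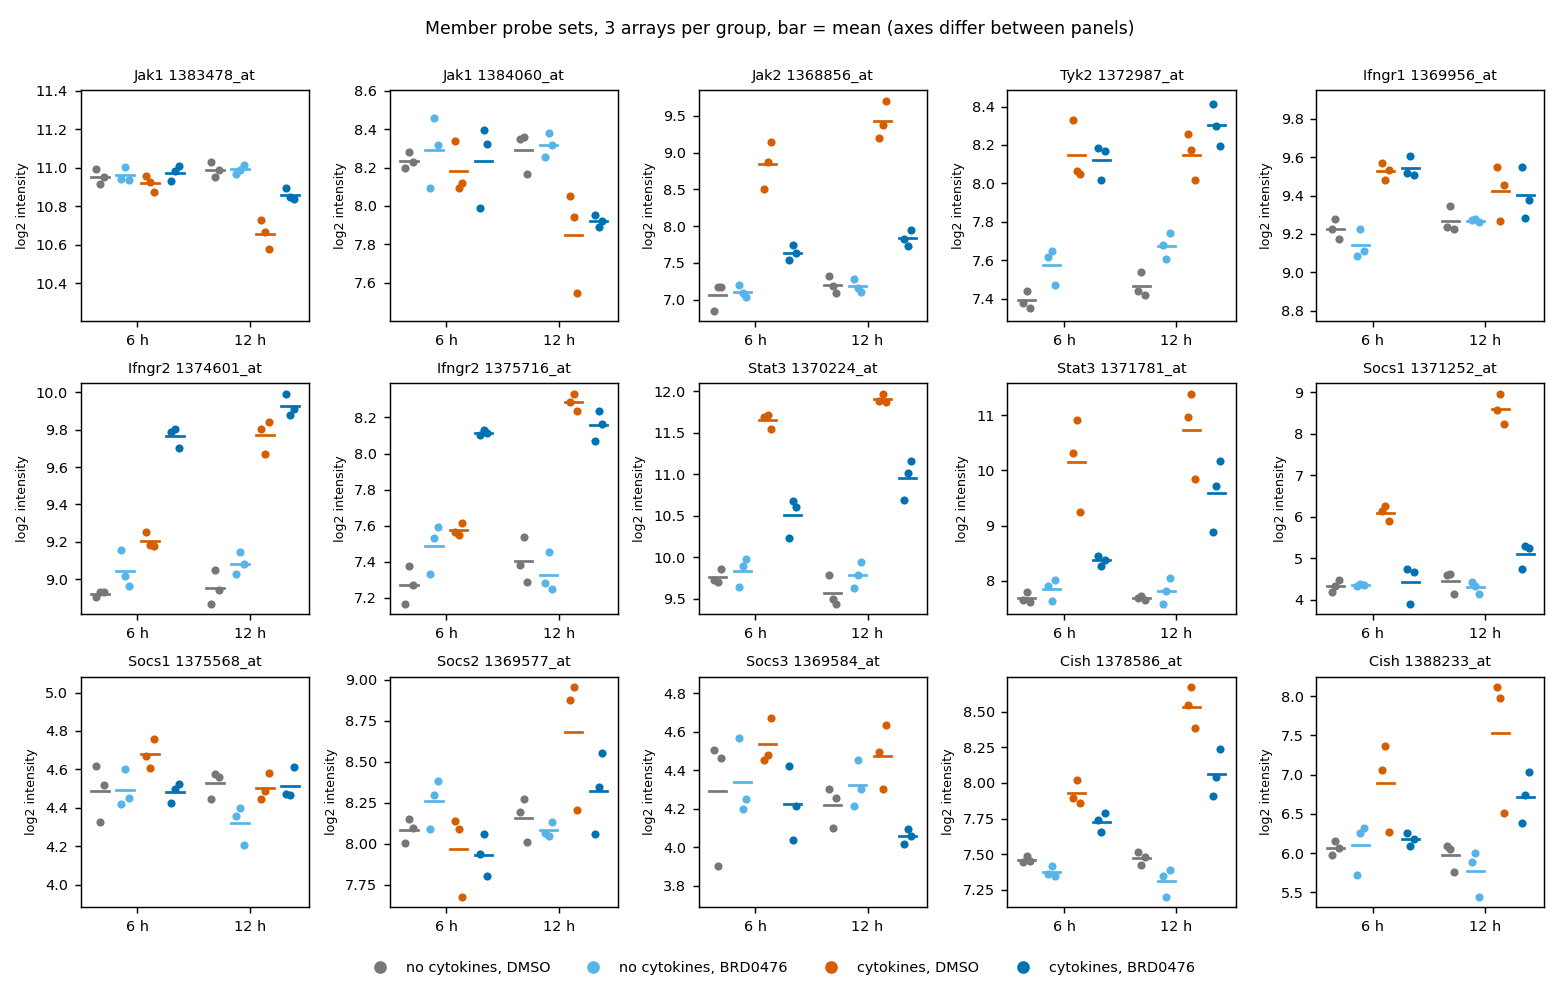
Log2 intensity (vertical axes, which differ between panels) of each of the 15 probe sets at 6 and 12 h, with 1 point per array and a bar at the mean of the 3 arrays of a group, coloured by treatment. For Jak2 the arrays with cytokines and DMSO at 12 h lie between 9.20 and 9.71 and those with cytokines and BRD0476 between 7.73 and 7.95, whereas for Ifngr2 (1374601_at) at 6 h the arrays with both agents lie between 9.70 and 9.81, above those with cytokines and DMSO.

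Of the kinases, Jak2 and Tyk2 rose with cytokines and Jak1 fell at 12 h. Jak2 (1368856_at), the kinase carried by Ifngr2, read 6.85, 7.17 and 7.17 without cytokines in DMSO at 6 h, and 8.50, 8.87 and 9.15 with cytokines. At 12 h the same groups read 7.32, 7.19 and 7.08, and 9.20, 9.38 and 9.71. The groups did not overlap at either time, and the rise was 1.78 ± 0.14 at 6 h (adjusted p = 4.61e-10, 3.43-fold) and 2.23 ± 0.14 at 12 h (adjusted p = 1.52e-11, 4.70-fold). With BRD0476 added to the cytokines, Jak2 read 7.54, 7.74 and 7.64 at 6 h and 7.82, 7.73 and 7.95 at 12 h, below every array with cytokines and DMSO. The difference from cytokines with DMSO was -1.20 ± 0.14 at 6 h (adjusted p = 3.78e-07) and -1.60 ± 0.14 at 12 h (adjusted p = 1.15e-08). A rise of 0.53 ± 0.14 at 6 h (adjusted p = 0.00974) and 0.66 ± 0.14 at 12 h (adjusted p = 0.00133) over BRD0476 alone was left, which is 29.9% and 29.4% of the log2 change in DMSO. The 6 h call of that remaining rise was lost without the second array given both agents (0.48, adjusted p = 0.0505). Ordered by level, the groups ran from cytokines with DMSO at 12 h (9.43 ± 0.25, SD) and at 6 h (8.84 ± 0.32), through both agents at 12 h (7.83 ± 0.11) and 6 h (7.64 ± 0.10), whose arrays overlapped, to the 4 groups without cytokines (7.06 to 7.20), which overlapped each other.

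Tyk2 (1372987_at), the kinase of the type I interferon and IL-10 family receptors, also rose, and was not called between both agents and cytokines with DMSO. It read 7.38, 7.44 and 7.35 without cytokines in DMSO at 6 h and 8.33, 8.06 and 8.05 with them. With both agents it read 8.18, 8.02 and 8.17, within the range of cytokines with DMSO or just under it. The cytokine change in DMSO was 0.75 ± 0.09 at 6 h (adjusted p = 2.2e-07) and 0.68 ± 0.09 at 12 h (adjusted p = 1.43e-06). In BRD0476 it was 0.55 ± 0.09 (adjusted p = 8.6e-05) and 0.63 ± 0.09 (adjusted p = 1.27e-05). The difference between both agents and cytokines with DMSO was -0.02 at 6 h (95% interval -0.20 to 0.16, adjusted p = 0.884) and 0.15 at 12 h (-0.03 to 0.33, adjusted p = 0.271). The Tyk2 rise in DMSO was itself smaller than the Jak2 difference, so the 2 genes cannot be compared by the size of a loss. The cytokine change in BRD0476 minus that in DMSO was -0.21 at 6 h (95% interval -0.46 to 0.05) and -0.06 at 12 h (-0.31 to 0.20).

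Jak1, the kinase carried by Ifngr1, was the only member called lower with cytokines, and only at 12 h among the 2 times. Its brighter probe set (1383478_at) read 11.03, 10.95 and 10.99 without cytokines in DMSO at 12 h and 10.73, 10.67 and 10.58 with them. The groups did not overlap, and the change was -0.33 ± 0.06 (adjusted p = 7.48e-05). The second probe set (1384060_at) read 8.35, 8.36 and 8.17, and 8.05, 7.94 and 7.54, a change of -0.44 ± 0.12 (adjusted p = 0.00598). That call was lost without the third array with cytokines and DMSO, the one at 7.54 (-0.29, adjusted p = 0.0546). At 6 h the changes were -0.03 (adjusted p = 0.707) and -0.05 (adjusted p = 0.779). With both agents at 12 h the first probe set read 10.90, 10.85 and 10.84, above all arrays with cytokines and DMSO, by 0.20 ± 0.06 (adjusted p = 0.015). The call was lost without the third array with cytokines and DMSO (0.16, adjusted p = 0.0837), without the first array given both agents (0.18, adjusted p = 0.0587) and in a fit of only the arrays compared (adjusted p = 0.201). For the second probe set the difference was 0.07 (adjusted p = 0.78).

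Both chains of the interferon-gamma receptor rose with cytokines, and neither fell with BRD0476. Ifngr1 (1369956_at), the ligand-binding chain, read 9.23, 9.28 and 9.17 without cytokines in DMSO at 6 h, 9.57, 9.48 and 9.53 with them, and 9.52, 9.61 and 9.51 with both agents. The arrays with cytokines lay above all those without, and those with both agents overlapped those with cytokines and DMSO. The change was 0.30 ± 0.08 in DMSO (adjusted p = 0.00297) and 0.40 ± 0.08 in BRD0476 (adjusted p = 0.000676). At 12 h it was 0.16 ± 0.08 (adjusted p = 0.132) and 0.13 ± 0.08 (adjusted p = 0.284), with overlapping arrays in DMSO. Without the second array with cytokines and DMSO at 12 h, which read 9.27, the change in DMSO was 0.23 (adjusted p = 0.0301).

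Ifngr2, the signalling chain, read higher with both agents than with cytokines and DMSO at 6 h. Its brighter probe set (1374601_at) read 8.91, 8.94 and 8.93 without cytokines in DMSO at 6 h, 9.25, 9.18 and 9.18 with cytokines, and 9.79, 9.81 and 9.70 with both agents. The 3 groups did not overlap. At 12 h cytokines with DMSO read 9.80, 9.67 and 9.84 and both agents 9.99, 9.88 and 9.91, so for this probe set the arrays with both agents at 6 h overlapped those with cytokines and DMSO at 12 h. The second probe set (1375716_at) read 8.10, 8.13 and 8.12 with both agents at 6 h, below the 8.28, 8.33 and 8.24 with cytokines and DMSO at 12 h. For the brighter one, both agents exceeded cytokines with DMSO by 0.56 ± 0.07 at 6 h (adjusted p = 1.14e-06), and by 0.15 ± 0.07 at 12 h, which did not pass (adjusted p = 0.147). The second probe set gave 0.54 ± 0.08 at 6 h (adjusted p = 1.69e-05) and -0.13 ± 0.08 at 12 h (adjusted p = 0.354), so the probe sets differed in sign at 12 h, where neither passed. On its own, BRD0476 changed the probe sets at 6 h by 0.12 (adjusted p = 0.548) and 0.21 (adjusted p = 0.255). The cytokine change was larger in BRD0476 than in DMSO at 6 h by 0.44 ± 0.10 (adjusted p = 0.00175) and 0.32 ± 0.12 (adjusted p = 0.0451). The latter call was lost in 9 of the fits that left out 1 array (adjusted p up to 0.14) and in 5 other alternatives (up to 0.0836).

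In the RefSeq gene table, Ifngr2 lies in a cluster of receptor genes with Ifnar1, Il10rb and Ifnar2 next to it on one side. Of these neighbours, none was called higher with both agents than with cytokines and DMSO. At 6 h the differences were -0.08 ± 0.16 for Ifnar1 (adjusted p = 0.759) and 0.07 ± 0.10 for Ifnar2 (adjusted p = 0.671), the chains of the type I interferon receptor. Il10rb, the shared chain of the IL-10 and IL-22 receptors, differed by -0.08 ± 0.08 at 6 h (adjusted p = 0.525) and by -0.76 ± 0.08 at 12 h (adjusted p = 3.65e-07), where cytokines alone had raised it by 1.28 ± 0.08 (adjusted p = 2.93e-11).

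Stat3, a STAT factor best known downstream of IL-6 family cytokines, rose in both probe sets. Probe set 1370224_at read 9.72, 9.70 and 9.86 without cytokines in DMSO at 6 h, 11.69, 11.71 and 11.55 with them, and 10.23, 10.68 and 10.60 with both agents. At 12 h it read 9.78, 9.49 and 9.44, then 11.89, 11.97 and 11.87, then 10.69, 11.02 and 11.17. At each time these 3 groups were separate, with both agents in between. The rise in DMSO was 1.89 ± 0.13 (adjusted p = 7.68e-11) and 2.34 ± 0.13 (adjusted p = 3.09e-12), and the difference of both agents from cytokines with DMSO was -1.14 ± 0.13 at 6 h (adjusted p = 3.7e-07) and -0.95 ± 0.13 at 12 h (adjusted p = 1.01e-05). The cytokine change in BRD0476 was 35.3% of that in DMSO at 6 h and 50.1% at 12 h on the log2 scale.

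The other Stat3 probe set (1371781_at) moved the same way with wider spread. With cytokines and DMSO it read 10.32, 10.92 and 9.25 at 6 h and 10.97, 11.39 and 9.85 at 12 h, where the arrays numbered 3 are the low ones. With both agents it read 8.46, 8.27 and 8.38, and 8.89, 9.71 and 10.17, so the groups overlapped at 12 h. The rise in DMSO was 2.47 ± 0.35 (adjusted p = 4.65e-06) and 3.05 ± 0.35 (adjusted p = 3.87e-07), and the difference with BRD0476 was -1.79 ± 0.35 (adjusted p = 0.000325) and -1.14 ± 0.35 (adjusted p = 0.0258). The 12 h call was lost without the first or second array with cytokines and DMSO (-1.03, adjusted p = 0.0884, and -0.82, adjusted p = 0.165) or without the first array given both agents (-0.79, adjusted p = 0.17). It was also lost in a fit of only the arrays compared (adjusted p = 0.129) and with an intensity trend and robust prior (adjusted p = 0.0527). In BRD0476 the cytokine change of this probe set was 0.52 ± 0.35 at 6 h (adjusted p = 0.421, and 0.0165 in a fit of only the arrays compared). At 12 h it was 1.78 ± 0.35 (adjusted p = 0.000814). These are 21.2% and 58.2% of the log2 change in DMSO. Across the 24 arrays the Stat3 probe sets correlated with r = 0.944.

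The feedback genes are known STAT targets, and their promoters are shown for the STAT and interferon motifs that these 300 bases hold. RefSeq promoters (build GRCr8, 250 bases before to 50 bases after the gene's start) were found for 7 of the 10 genes: Jak2, Ifngr1, Ifngr2, Stat3, Socs1, Socs3 and Cish. Capitals mark matches, on either strand, to the core of a STAT site (GAS, TTCNNNGAA, which reads the same on both strands) or to the core of an interferon-stimulated response element (ISRE, GAAANNGAAA or its reverse complement). The promoter of Socs1 lies at chr10:5389324-5389623 (+ strand), that of Cish at chr8:116850719-116851018 (+ strand) and that of Jak2, shown as a gene that rose without a match, at chr1:236408655-236408954 (+ strand).
Socs1: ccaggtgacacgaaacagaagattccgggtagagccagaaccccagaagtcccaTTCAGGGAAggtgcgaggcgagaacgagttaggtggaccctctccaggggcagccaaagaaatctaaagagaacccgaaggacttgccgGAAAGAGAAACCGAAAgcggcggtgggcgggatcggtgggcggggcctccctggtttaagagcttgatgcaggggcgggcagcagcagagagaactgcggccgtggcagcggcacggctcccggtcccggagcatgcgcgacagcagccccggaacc
Cish: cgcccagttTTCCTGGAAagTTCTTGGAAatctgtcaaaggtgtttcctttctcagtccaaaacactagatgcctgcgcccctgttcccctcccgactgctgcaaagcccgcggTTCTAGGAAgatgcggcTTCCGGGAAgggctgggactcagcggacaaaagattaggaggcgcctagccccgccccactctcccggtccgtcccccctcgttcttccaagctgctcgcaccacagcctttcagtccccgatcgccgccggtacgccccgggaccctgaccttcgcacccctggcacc
Jak2: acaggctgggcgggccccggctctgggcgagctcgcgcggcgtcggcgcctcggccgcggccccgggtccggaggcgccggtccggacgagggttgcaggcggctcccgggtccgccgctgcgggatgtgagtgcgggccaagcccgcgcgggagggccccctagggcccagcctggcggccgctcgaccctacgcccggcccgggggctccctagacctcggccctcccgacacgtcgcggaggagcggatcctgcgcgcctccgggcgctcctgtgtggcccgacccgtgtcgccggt
Socs1 has 1 GAS core, starting 196 bases before the gene's start, and 2 ISRE cores that overlap by a few bases, starting 107 and 101 bases before it. Cish has 4 GAS cores, at 241, 230, 136 and 119 bases before its start, and no ISRE core. Of 33469 rat promoters of the same length, 8.87% hold a GAS core and 3.92% an ISRE core. The windows of Jak2, Ifngr1, Ifngr2, Stat3 and Socs3 hold neither motif, which says only that these letters are not in these 300 bases.

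Socs1, which binds JAK kinases directly and blocks them, had the largest cytokine change at 12 h among the 15 probe sets. Probe set 1371252_at read 4.19, 4.34 and 4.47 without cytokines in DMSO at 6 h and 6.14, 6.26 and 5.90 with them. At 12 h it read 4.60, 4.63 and 4.14, and 8.57, 8.96 and 8.24. The arrays without cytokines were dim, a little above the lower quartile, and those with cytokines were clearly higher at both times. The rise was 1.76 ± 0.20 at 6 h (adjusted p = 1.89e-07, 3.40-fold) and 4.13 ± 0.20 at 12 h (adjusted p = 2.54e-13, 17.6-fold), where the dim baseline makes the folds uncertain. With both agents the arrays read 4.74, 3.90 and 4.66 at 6 h, which overlaps the untreated level, and 4.74, 5.29 and 5.25 at 12 h. The difference from cytokines with DMSO was -1.66 ± 0.20 (adjusted p = 7.75e-07) and -3.50 ± 0.20 (adjusted p = 1.92e-11). In BRD0476 the cytokine change was 0.08 ± 0.20 at 6 h (adjusted p = 0.877) and 0.79 ± 0.20 at 12 h (adjusted p = 0.0066). With a pseudocount of 16 the 12 h value was 0.49 (adjusted p = 0.017). By level, cytokines with DMSO at 12 h (8.59 ± 0.36, SD) and 6 h (6.10 ± 0.18) and both agents at 12 h (5.09 ± 0.30) were separate from each other and from the other 5 groups, which lay between 4.30 and 4.46 and overlapped. For both agents the margin was very small, with the lowest array at 12 h at 4.745 and the highest at 6 h at 4.737.

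The second Socs1 probe set (1375568_at) stayed dim, with group means from 4.32 to 4.68, and was called in none of the 13 comparisons. It changed by 0.19 ± 0.08 with cytokines at 6 h (adjusted p = 0.0668) and by -0.02 ± 0.08 at 12 h (adjusted p = 0.871). Its correlation with the first over 24 arrays was r = 0.245, so the account of Socs1 rests on 1 probe set.

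Cish, an inhibitor induced through STAT5 that binds cytokine receptors, rose in both probe sets. Probe set 1378586_at read 7.45, 7.48 and 7.45 without cytokines in DMSO at 6 h, 7.90, 8.02 and 7.86 with them and 7.74, 7.65 and 7.79 with both agents. At 12 h it read 7.52, 7.42 and 7.48, then 8.55, 8.67 and 8.38, then 7.91, 8.04 and 8.24. The 3 groups were separate at each time. The rise in DMSO was 0.47 ± 0.08 (adjusted p = 9.53e-05) and 1.06 ± 0.08 (adjusted p = 1.19e-09). The difference of both agents from cytokines with DMSO was -0.20 ± 0.08 at 6 h, which did not pass (adjusted p = 0.0773), and -0.47 ± 0.08 at 12 h (adjusted p = 0.00026), and 75.3% and 70.5% of the log2 rise was read in BRD0476. The other probe set (1388233_at) read 7.05, 7.37 and 6.26 with cytokines and DMSO at 6 h and 8.12, 7.97 and 6.51 at 12 h, again low in the arrays numbered 3. Its rise was 0.83 ± 0.31 at 6 h (adjusted p = 0.0371) and 1.56 ± 0.31 at 12 h (adjusted p = 0.000366). The 6 h call was lost without the first or second array with cytokines and DMSO or without any 1 of the 3 untreated arrays (adjusted p up to 0.19). It was also lost with an intensity trend and robust prior (adjusted p = 0.0638). In BRD0476 the rise of this probe set was 0.08 ± 0.31 at 6 h (adjusted p = 0.931) and 0.94 ± 0.31 at 12 h (adjusted p = 0.0384). These are 9.3% and 60.3% of the log2 rise in DMSO, so at 6 h the probe sets differed in the share read in BRD0476. The BRD0476 difference with cytokines was -0.72 ± 0.31 (adjusted p = 0.0841) and -0.81 ± 0.31 (adjusted p = 0.0789). With the arrays numbered 3 of both groups left out, an alternative chosen after the data were seen, it was -1.03 (adjusted p = 0.00022) and -1.33 (adjusted p = 3.48e-05).

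With cytokines in DMSO, Socs2 was called at 12 h and Socs3 at neither time. Socs2 (1369577_at), the inhibitor best known for limiting growth hormone signalling, read 8.19, 8.27 and 8.01 without cytokines in DMSO at 12 h and 8.88, 8.96 and 8.21 with them. The third array with cytokines lay among the untreated ones, and the change was 0.52 ± 0.16 (adjusted p = 0.014). That call was lost in a fit of only the arrays compared (adjusted p = 0.0753), without the first (0.42, adjusted p = 0.0757) or second (0.38, adjusted p = 0.101) array with cytokines, or without the third untreated array (0.45, adjusted p = 0.0675). At 6 h the change was -0.11 ± 0.16 (adjusted p = 0.63). With both agents at 12 h Socs2 read 8.06, 8.34 and 8.56, a difference of -0.36 ± 0.16 (adjusted p = 0.139). Without the third array with cytokines and DMSO it was -0.60 (adjusted p = 0.00403).

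Socs3 (1369584_at), which binds JAK kinases and gp130-type receptors and is a well-known Stat3 target, stayed dim in all groups, with means from 4.06 to 4.54. With cytokines in DMSO it read 4.46, 4.48 and 4.67 at 6 h and 4.49, 4.30 and 4.64 at 12 h, overlapping the untreated arrays (3.90 to 4.51 and 4.10 to 4.30). The changes were 0.24 ± 0.14 (adjusted p = 0.178) and 0.26 ± 0.14 (adjusted p = 0.166), with upper 95% bounds of 0.53 and 0.55. At 12 h both agents read 4.02, 4.10 and 4.06, below all arrays with cytokines and DMSO, a difference of -0.42 ± 0.14 (adjusted p = 0.038). The call was lost without array 1 or array 3 with cytokines and DMSO and without any 1 of the 3 arrays given both agents (adjusted p up to 0.151), and with a pseudocount of 16 the value was -0.23 (adjusted p = 0.0437).

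**Figure D2:**
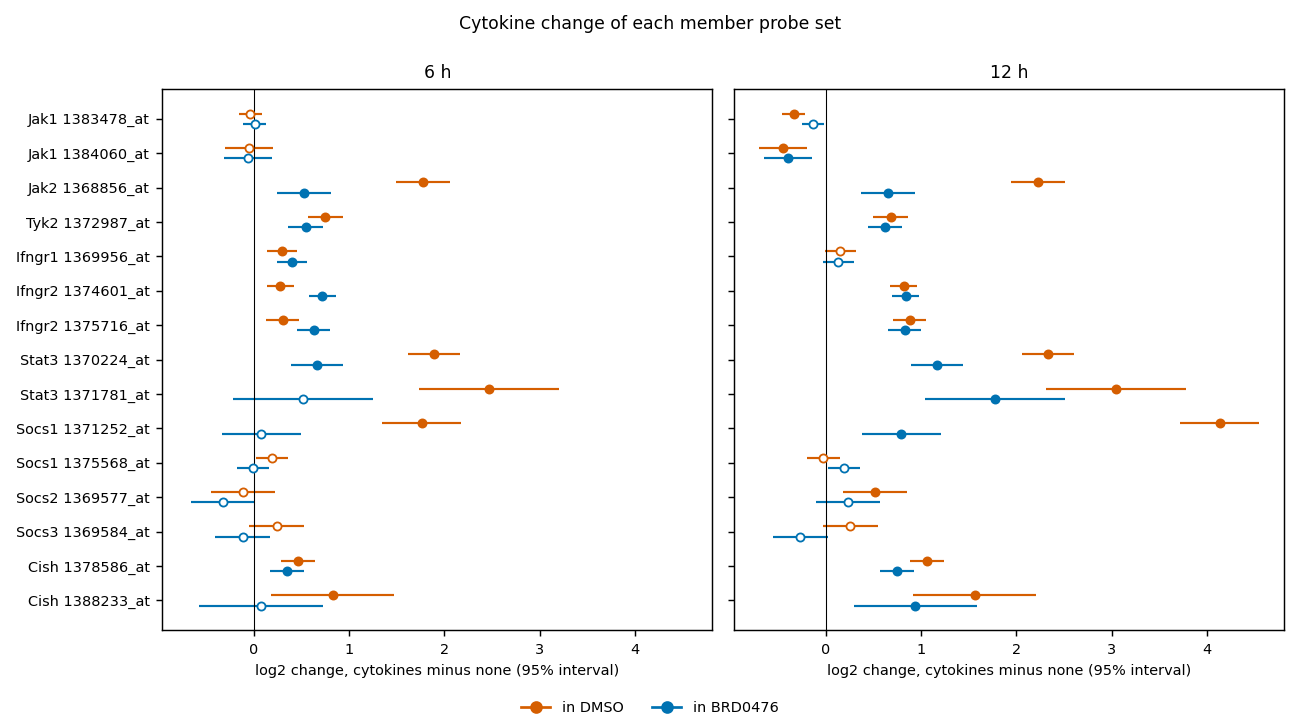
Log2 change with cytokines (horizontal axis, cytokines minus none, bars give the 95% interval) of each of the 15 probe sets in DMSO and in BRD0476 at 6 h and 12 h. Filled points passed an adjusted p of 0.05. Socs1 (1371252_at) moves from 4.13 in DMSO to 0.79 in BRD0476 at 12 h, whereas Tyk2 stays at 0.68 and 0.63.

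The second question was what BRD0476 changed when cytokines were present. At 6 h 2 probe sets were higher, both of Ifngr2, and 4 were lower, those of Jak2, Stat3 (both) and Socs1 (1371252_at), against 33.8% called among all probe sets. The median change was -0.19 over the 15 probe sets and 0.00 over all. At 12 h 1 was higher (Jak1) and 6 were lower (Jak2, both of Stat3, Socs1, Socs3 and Cish), against 18.2% among all, with medians of -0.36 and 0.02. Without the first array given both agents at 12 h the count was 4 in place of 7. Comparisons of cytokines against none in DMSO and of both agents against cytokines with DMSO share the arrays with cytokines and DMSO, so their values are given side by side and no relation between them was computed.

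Within BRD0476, 7 probe sets rose with cytokines and 0 fell at 6 h, against 14% called among all probe sets. These were Jak2, Tyk2, Ifngr1, both of Ifngr2, Stat3 (1370224_at) and Cish (1378586_at). At 12 h 9 rose and 1 fell (Jak1, 1384060_at, -0.40 ± 0.12, adjusted p = 0.0241), against 18.4%. That Jak1 call was lost without any of 4 single arrays in BRD0476 (adjusted p up to 0.0846). The 12 h rise of Cish 1388233_at (0.94 ± 0.31, adjusted p = 0.0384) was lost without any of 4 single arrays as well (adjusted p up to 0.173). It was also lost with an intensity trend and robust prior (adjusted p = 0.0668) and with a pseudocount of 16 (0.78, adjusted p = 0.058).

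The difference between the cytokine changes in BRD0476 and in DMSO was tested directly as an interaction. At 6 h it was called in 6 probe sets, against 24.6% of all. The 4 negative ones were Socs1 1371252_at (-1.68 ± 0.28, adjusted p = 0.000107), Stat3 1371781_at (-1.95 ± 0.50, adjusted p = 0.00549), Stat3 1370224_at (-1.22 ± 0.18, adjusted p = 3.04e-05) and Jak2 (-1.25 ± 0.19, adjusted p = 4.39e-05), and the 2 positive ones were those of Ifngr2. At 12 h it was called in 3, all negative, against 10.1%. These were Socs1 1371252_at (-3.34 ± 0.28, adjusted p = 2.61e-08), Jak2 (-1.58 ± 0.19, adjusted p = 5.19e-06) and Stat3 1370224_at (-1.17 ± 0.18, adjusted p = 0.000121). Without the third array with cytokines and DMSO at 12 h, 6 were called, with both Cish probe sets (-0.39, adjusted p = 0.0416, and -1.13, adjusted p = 0.0312) and Stat3 1371781_at (-1.72, adjusted p = 0.0157) added. For Tyk2 the interaction was -0.21 ± 0.12 at 6 h (adjusted p = 0.25) and -0.06 ± 0.12 at 12 h (adjusted p = 0.887).

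Without cytokines BRD0476 changed none of the 15 probe sets past the threshold. At 6 h limma called 0 (2 at an unadjusted p under 0.05), against 1.72% of all probe sets. At 12 h it called 0 (2 at an unadjusted p under 0.05), against 2.57%, and array weights added 1, Socs1 1375568_at (-0.21, adjusted p = 0.0381). Tyk2 had all 3 arrays with BRD0476 above all 3 with DMSO at each time, at 7.62, 7.65 and 7.47 against 7.38, 7.44 and 7.35 at 6 h and at 7.68, 7.61 and 7.74 against 7.44, 7.54 and 7.42 at 12 h. The Tyk2 differences were 0.19 ± 0.09 (adjusted p = 0.406) and 0.21 ± 0.09 (adjusted p = 0.28). Tyk2 was not alone, since 3 of the 15 probe sets had groups that did not overlap at each time. Cish 1378586_at was lower with BRD0476 at both times, with changes of -0.08 at 6 h and -0.16 at 12 h. Ifngr2 1374601_at was higher at 6 h (0.12), and Socs1 1375568_at was lower at 12 h (-0.20). The share of all probe sets separated in this way is not given.

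**Figure D3:**
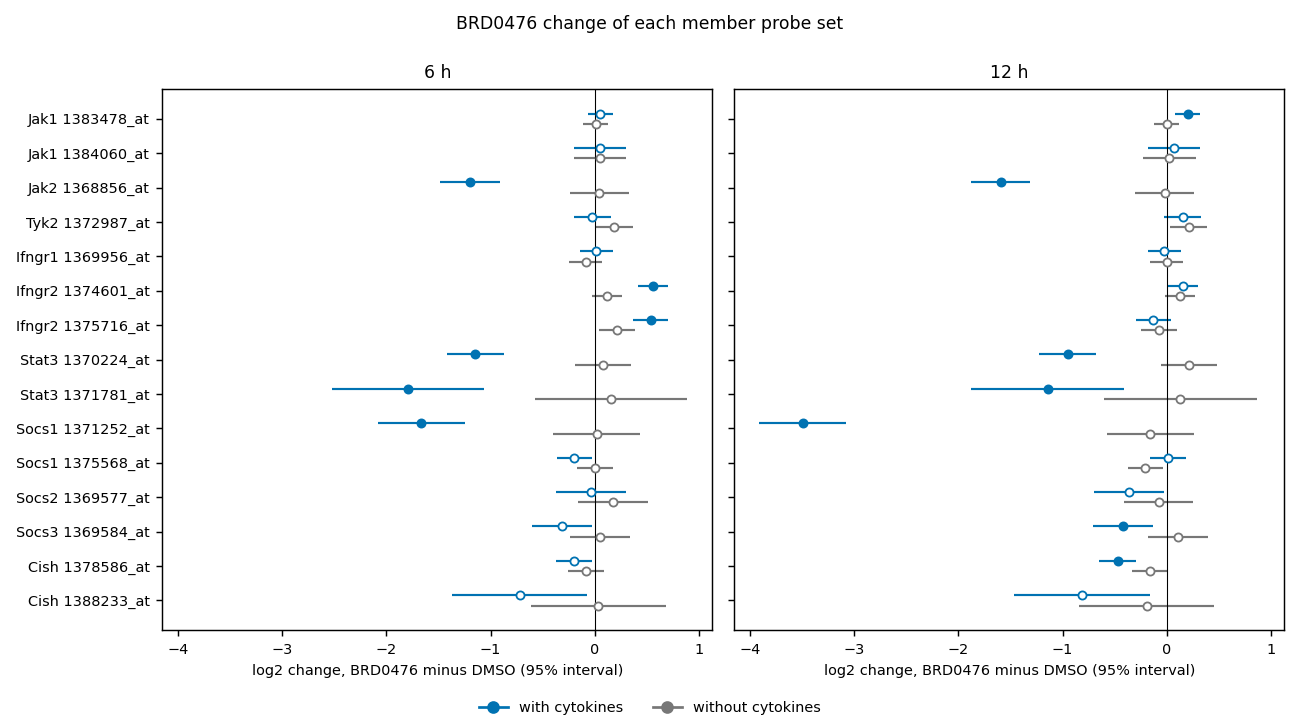
Log2 change with BRD0476 (horizontal axis, BRD0476 minus DMSO, bars give the 95% interval) of each of the 15 probe sets with and without cytokines at 6 h and 12 h. Filled points passed an adjusted p of 0.05. Without cytokines no point is filled, and with cytokines Socs1 (1371252_at) lies at -3.50 at 12 h and both Ifngr2 probe sets lie at 0.56 and 0.54 at 6 h.

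Time was compared next. In DMSO the cytokine change differed between 12 h and 6 h in 5 probe sets, 4 of them larger at 12 h and 1 lower, against 20.5% of all. The larger ones were Socs1 1371252_at (2.37 ± 0.28, adjusted p = 2.22e-06), Cish 1378586_at (0.60 ± 0.12, adjusted p = 0.000823) and both of Ifngr2 (0.54 ± 0.10, adjusted p = 0.000311, and 0.58 ± 0.12, adjusted p = 0.000845). Jak1 1383478_at was the lower one (-0.30 ± 0.08, adjusted p = 0.00978, and 0.0681 in a fit of only the arrays compared). The second probe sets of Jak1 (-0.39 ± 0.17, adjusted p = 0.122), Cish (0.73 ± 0.44, adjusted p = 0.291) and Socs1 (-0.22 ± 0.12, adjusted p = 0.226) did not pass. With 1 array of cytokines and DMSO at 12 h left out, that of Jak1 passed without the first (-0.49, adjusted p = 0.0488). That of Cish passed without the third (1.25, adjusted p = 0.00932). Jak2 (0.45 ± 0.19, adjusted p = 0.112) and Stat3 1370224_at (0.44 ± 0.18, adjusted p = 0.102) did not pass. Nor did Socs2 (0.63 ± 0.23, adjusted p = 0.0527), which passed in 8 of 10 other settings of the fit, filter or scaling (adjusted p from 0.0271 to 0.049, the last with the replicate number as a block). With 1 array left out its difference was 0.49 to 0.87 (adjusted p from 0.00176, without the third array with cytokines and DMSO at 12 h, to 0.15). Jak2 passed without the third array with cytokines and DMSO at 6 h (0.61, adjusted p = 0.0212) or the first at 12 h (0.57, adjusted p = 0.0473). Stat3 1370224_at passed in a fit of only the arrays compared (adjusted p = 0.0485) or without the first untreated array at 12 h (0.55, adjusted p = 0.0481). The effect of BRD0476 with cytokines differed between the times in 3 probe sets, all lower at 12 h, against 17.6%: Socs1 1371252_at (-1.83 ± 0.28, adjusted p = 7.82e-05) and both of Ifngr2 (-0.41 ± 0.10, adjusted p = 0.00525, and -0.67 ± 0.12, adjusted p = 0.000286). In cells with neither agent, 12 h against 6 h gave 0 called by limma (0 at an unadjusted p under 0.05), against 0.818% of all.

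The rest of the pathway was read from a list of 52 JAK-STAT genes, of which 47 have a named probe set, each read by its brightest one. The others were not analysed here. With cytokines in DMSO, 24 of the 47 rose and 7 fell at 6 h and 20 rose and 10 fell at 12 h, with median changes of 0.21 and 0.20. With BRD0476 added, 5 were higher and 17 lower at 6 h and 4 higher and 17 lower at 12 h than with cytokines and DMSO, with medians of -0.15 and -0.18. The share of all probe sets called is the one given above for each comparison. It covers all 31042 probe sets, 9780 of them without a symbol, whereas these genes are read by their brightest. The counts and the share are therefore not over like sets.

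By role, inhibitors other than the members were the group with Usp18, which limits type I interferon receptor signalling and had the largest rise of the list at 7.21 ± 0.16 at 6 h (adjusted p = 5.18e-19). Of 13 measured inhibitors, 8 rose and 1 fell at 6 h, and 5 rose and 4 fell at 12 h. Usp18 was lower with both agents than with cytokines and DMSO, with differences of -2.90 ± 0.16 at 6 h (adjusted p = 7.43e-12) and -1.55 ± 0.16 at 12 h (adjusted p = 2.4e-07). Socs5, a further SOCS gene, differed from Socs1 in direction: at 12 h it fell with cytokines (-0.62 ± 0.10, adjusted p = 2.71e-05) and was higher with both agents (0.40 ± 0.10, adjusted p = 0.00544).

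Of the 6 other kinases and STATs measured, 4 rose at 6 h and 2 at 12 h, and none fell. Stat2, a transcription factor of the type I interferon response, rose by 4.24 ± 0.13 at 6 h (adjusted p = 1.38e-16) and 4.38 ± 0.13 at 12 h (adjusted p = 7.43e-17). It was lower with both agents, with a difference of -1.93 ± 0.13 at 12 h (adjusted p = 4.39e-10).

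Among 12 partners and targets, 7 rose and 1 fell at 6 h, and 9 rose and 2 fell at 12 h. Irf1, an interferon-induced transcription factor, rose by 4.74 ± 0.11 at 6 h (adjusted p = 1.17e-18) and was lower with both agents, with a difference of -2.68 ± 0.11 (adjusted p = 7.82e-14). Irf9, the DNA-binding subunit that joins Stat2, was lower with both agents, with a difference of -2.57 ± 0.12 at 6 h (adjusted p = 3.74e-13). Fos, an immediate early gene, went the other way: it fell by 1.88 on the log2 scale at 6 h (adjusted p = 1.92e-08) and was higher with both agents by 1.97 ± 0.18 (adjusted p = 1.93e-08). With cytokines and DMSO at 6 h its mean, 3.58, was under the lower quartile, so the size of this change is uncertain.

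The 16 measured receptor chains split evenly at 6 h, with 5 up and 5 down, and at 12 h, with 4 up and 4 down. Il6r, the IL-6 receptor, fell by 1.16 on the log2 scale at 6 h (adjusted p = 1.09e-10) and by 0.95 at 12 h (adjusted p = 4.68e-09). Ghr, the growth hormone receptor, fell by 1.09 at 6 h (adjusted p = 8.01e-12) and was higher with both agents by 0.47 ± 0.07 (adjusted p = 6.55e-06). Prlr, the prolactin receptor, fell by 0.93 at 12 h (adjusted p = 1.27e-07). Ifnlr1, the interferon-lambda receptor chain, was higher with both agents at 6 h by 0.58 ± 0.12 (adjusted p = 0.000583), and Il6st, the gp130 chain, at 12 h by 0.56 ± 0.17 (adjusted p = 0.0222).

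**Figure D4:**
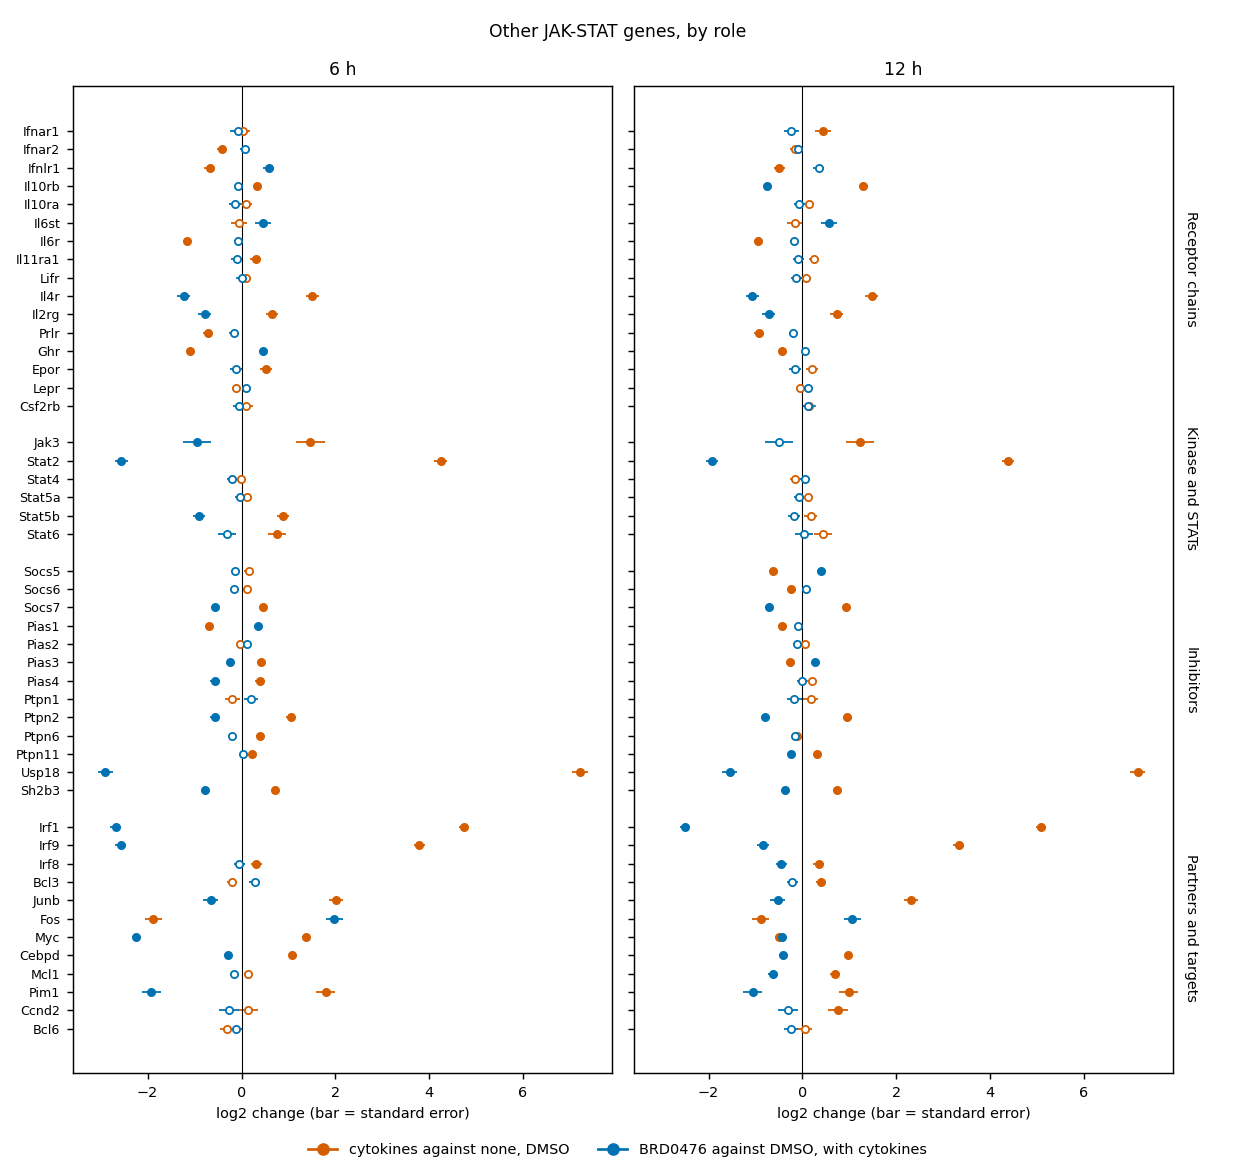
Log2 change (horizontal axis, bars give the standard error) of the 47 other JAK-STAT genes, grouped by role, with cytokines against none in DMSO and with both agents against cytokines and DMSO, at 6 h and 12 h. Filled points passed an adjusted p of 0.05. Usp18 lies farthest right at 7.21 and 7.14, and Fos lies on opposite sides from it in both comparisons.

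The genes whose pattern over the 24 arrays was most like that of a member are a description, since all arrays share the same treatments. For Jak2 these were Rmdn3 (r = 0.980), Lmo2 (r = 0.979) and Pnpt1 (r = 0.977). Stat3 (1370224_at) was closest to Sp110 (r = 0.989), Dhx58 (r = 0.986) and Cmpk2 (r = 0.981), and Socs1 (1371252_at) to Vps54 (r = 0.979), Nod1 (r = 0.976) and Lrrc4c (r = 0.972). For Cish (1378586_at) they were Ptgfrn (r = 0.964), Irgm (r = 0.963) and Eif2ak2 (r = 0.961). Socs3, dim throughout, had lower values, with Limd1 at r = 0.801, Cenpm at r = 0.765 and Nrg1 at r = 0.746.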

How the data were processed

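RMA, which corrects background, normalizes between arrays and gives 1 value per probe set, produced the authors' deposited linear intensity values, per the submitters' processing notes. Its version, the chip definition and the return from log2 are not given in the sources used here. Of 31099 probe sets 57 are controls. The remaining 31042 were taken to log2 and fitted with limma 3.58.1 in R 4.3.3, with a mean for each of 8 groups, 16 residual degrees of freedom, eBayes, and Benjamini-Hochberg adjustment over all probe sets in each of 13 comparisons. A change was called at an adjusted p under 0.05. With 3 arrays against 3 an exact test cannot go below p = 0.1, so calls rest on the model. Of the probe sets, 20826 carry 1 gene symbol, 436 several and 9780 none.

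Members and gene lists were chosen with earlier results of these data known. Named were all member probe sets, the 3 largest rises and falls among called genes of the other JAK-STAT list in each of 4 comparisons, and the 3 non-member genes most alike to 5 members. The neighbours of Ifngr2 were named after their values were seen. Deviations of same-numbered arrays from their group means had r from -0.404 to 0.641 (84 pairs, median -0.011, 24 over 0.1). All 3 were over 0.1 in 2 of 28 pairs of groups, among them cytokines with DMSO at 6 h and 12 h (0.363, 0.312 and 0.641). The numbers were therefore not taken to pair the samples over all groups. The fit was tested on simulated data. Alternatives were array weights, fewer arrays in the fit, a block for replicate number, and an eBayes trend on intensity together with a robust prior. Further ones were other filters and scalings, a pseudocount of 16, and each array left out in turn. The number of arrays limits the precision.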

Additional observations from a re-analysis of the deposited data

Results flagged for a closer look

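The effect of a treatment differed between 12 h and 6 h, by the test of the difference itself, for these 8 results. Values are the 12 h log2 change minus the 6 h one. For cytokines in DMSO they were 2.37 for Socs1 1371252_at, 0.60 for Cish 1378586_at, 0.54 for Ifngr2 1374601_at, 0.58 for Ifngr2 1375716_at and -0.30 for Jak1 1383478_at. For BRD0476 with cytokines they were -1.83 for Socs1 1371252_at, -0.41 for Ifngr2 1374601_at and -0.67 for Ifngr2 1375716_at. These are 5 of the 15 probe sets for cytokines, against 20.5% of all probe sets called. For BRD0476 they are 3 of 15, against 17.6%, which is close to the share over all probe sets. The second probe sets of Socs1, Cish and Jak1 were called in neither comparison. For Ifngr2 the BRD0476 difference was called at 6 h and not at 12 h, whereas for Socs1 it was called at both times and was larger in size at 12 h.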

How the results depend on the processing

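No member value that was called changed sign under any alternative run. Counts of called member probe sets moved by over 1.5 times in 3 comparisons. For BRD0476 with cytokines at 12 h (7 called) the count ranged from 4 to 7 when 1 array was left out. For the interaction at 12 h (3 called) it was 5 with array weights, 3 to 6 when 1 array was left out, and 7 with the arrays numbered 3 of both groups with cytokines and DMSO left out, an alternative chosen after the data were seen. For BRD0476 without cytokines at 12 h (0 called) array weights gave 1. In the other 10 comparisons the member counts stayed within 1.5 times, as did the counts of other JAK-STAT genes in the alternatives run for them. With 1 probe set per gene no count over probe sets can be given. Leaving out 1 array was not run for the list of other JAK-STAT genes. The replicate number as a block gave 6 in place of 5 called time differences of the cytokine effect, adding Socs2 (adjusted p = 0.049 against 0.0527), and changed no other member call. Of 24 arrays, 7 deviated most like those of their own number. Signal limits Socs3, Socs1 1375568_at and the untreated level of Socs1 1371252_at, which lie near the lower quartile.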
